A study of Bos taurus with 40 samples.

Results

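The MHC class II genes were followed through 4 tissues of 10 Korean cattle: pituitary gland, longissimus dorsi muscle, liver and abdominal fat. The set was chosen by symbol: BOLA-DQA1, BOLA-DQA2, BOLA-DQB, BOLA-DRA, BOLA-DRB3, BOLA-DMA, BOLA-DMB, BOLA-DOA, BOLA-DOB and CD74. Of these 10 symbols, 9 were found among the 13570 genes of the count tables, and BOLA-DRA was not found. The set and the measure used here, whether a gene was on or off in the tissues of the same animal, were chosen from values of these same libraries, so the levels and calls are given as a description without a test. A gene was called on in a library with 3 or more reads and off with fewer.

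Class II molecules are pairs of an alpha and a beta chain that carry peptides of internalised proteins to the surface of antigen-presenting cells, where CD4 T cells read them. In cattle the classical pairs are DR (BOLA-DRA with BOLA-DRB3) and DQ (a DQA with a DQB chain). CD74, the invariant chain, escorts newly made class II molecules and fills their groove, BOLA-DMA and BOLA-DMB form the DM molecule that exchanges its remnant for a peptide, and BOLA-DOA and BOLA-DOB form DO, which modulates DM. Cattle MHC haplotypes are known to differ in the number and kind of DQ genes they carry, and DQ alleles differ strongly in sequence.

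The animals were 5 cows and 5 bulls, slaughtered when over 22 months old, and every animal gave 1 poly-A RNA-seq library per tissue. No treatment was given in the labels, and the animals are numbered here within each sex, so cow 1 and bull 1 are not a pair. Each library held 5173092 to 19165864 reads on named genes (median 10005607), so that 3 reads correspond to 0.157 to 0.580 CPM (reads per 1000000 reads on genes) and a count of 0 does not show that a gene was silent. Levels are CPM scaled by the trimmed mean of M-values (TMM). In bulk tissue, fewer cells of a type and less RNA per cell cannot be told apart.

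A pair of libraries did not look like the animal they are labelled with, and a further library departed from its animal in part. The liver library labelled bull 3 had 8694 reads of XIST, the RNA of the inactive X chromosome, and 0 reads of the Y-linked genes DDX3Y, USP9Y and ZFY, whereas the other 3 libraries of bull 3 had 1 to 2 reads of XIST and 211 to 742 of USP9Y. The pituitary library labelled bull 5 had the Y-linked genes, with 1118 reads of USP9Y, but 25 reads of BOLA-DQA2 and 15 of BOLA-DQB where the liver, fat and muscle of bull 5 had 0 to 1 of either. The fat library of bull 5 had only 23 reads of USP9Y against 311 to 539 in the fat of the other bulls, and 18 of XIST. It had 2 reads of DDX3Y and 3 of ZFY. The liver, muscle and pituitary libraries of bull 5 had 69 to 169 and 212 to 457. The cause was not tested. Calls of the set, and the tests of sex for it, were repeated without the first 2 libraries. The pituitary library was doubted on its DQ reads, so closer agreement of DQ calls without it follows from that choice. The fat library of bull 5 was kept, and it holds the highest values of CD74 and BOLA-DRB3.

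BOLA-DQA1, an alpha chain of DQ, was on in 17 of the 40 libraries. In cow 3 it had 69 reads in liver, 50 in fat, 46 in the muscle and 31 in the pituitary gland. In cow 4 the reads were 40, 31, 3 and 56 in the same order. Both cows had reads in every tissue, with the muscle of cow 4 at the threshold. In bull 1 the reads were 59, 46, 6 and 20. In bull 5 they were 109, 136, 28 and 32. Cow 1, cow 2, cow 5, bull 2 and bull 4 had 0 reads in all 4 tissues. All 23 libraries called off were at 0, so no off call of BOLA-DQA1 lay between 1 and 2 reads.

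The single animal with both calls for BOLA-DQA1 was bull 3, with 27 reads in the liver library under its label and 0 in fat, muscle and pituitary gland. Without that liver library, BOLA-DQA1 was on in every library of 4 animals and off in every library of 6.

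BOLA-DQA2, another alpha chain, was on in 14 libraries and at 0 reads in 22. Bull 4 carried most of the signal, with 188 reads in liver, 151 in fat, 41 in the muscle and 104 in the pituitary gland. Bull 1 was on in all 4 tissues at 9, 6, 4 and 5 reads. In cow 5 the reads were 12, 11, 2 and 1, so that the 2 last tissues fell under the threshold. Cow 2, cow 4 and bull 2 had 0 reads throughout, and cow 3 had 1 read in fat alone. Cow 1 had 3 reads in fat and 0 elsewhere, and bull 3 had 6 in fat and 5 in pituitary gland with 0 in muscle and in the liver library under its label. Bull 5 had 0 in liver and muscle, 1 in fat and 25 in the doubted pituitary library. By calls, 2 animals were on in all 4 tissues, 4 were off in all 4 and 4 were mixed. Apart from that pituitary library, the reads of every mixed animal were 12 or fewer.

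BOLA-DQB, a beta chain of DQ, was on in 19 libraries and showed the widest spread of the 3 DQ genes of the set in reads. Cow 2 had 594 reads in liver, 659 in fat, 308 in the muscle and 220 in the pituitary gland. Cow 1 had 378, 237, 94 and 111. Bull 2 had 145, 336, 77 and 60. These 3 animals were on in all 4 tissues, each far above the threshold. Cow 4 and bull 4 had 0 reads in all 4 tissues, and cow 3 and cow 5 had at most 1 read in any. Bull 3 had 259 reads in fat, 22 in muscle and 90 in the pituitary gland, against 0 in the liver library under its label. Bull 1 stood near the threshold at 3, 8, 2 and 3 reads, and bull 5 had 0, 1 and 0 reads before the 15 of the doubted pituitary library. Thus 3 animals were on, 4 off and 3 mixed. Without both doubted libraries 4 were on, 5 off and only bull 1 mixed. The pituitary library was doubted on its reads of BOLA-DQA2 and BOLA-DQB, so the loss of the mixed call of bull 5 follows from that choice.

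**Figure D1:**
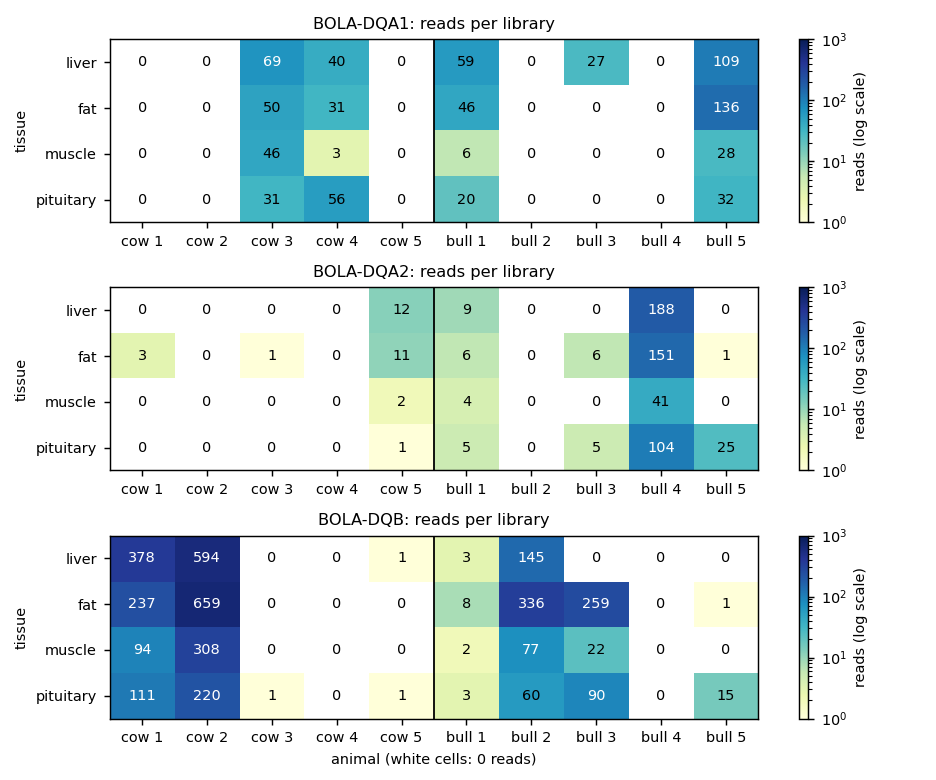
Reads of BOLA-DQA1, BOLA-DQA2 and BOLA-DQB in each of the 40 libraries, with animals as columns and tissues as rows; colour is the read count on a log scale, white is 0 reads and the black line parts cows from bulls. Columns are largely full or empty, as in cow 2, with 220 to 659 reads of BOLA-DQB in every tissue and 0 of the other genes; the liver of bull 3 and the pituitary gland of bull 5 go against their columns.

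A gene that is on in all 4 tissues of 1 animal and off in all 4 of another was uncommon in these files. It held for 50 of the 13148 genes with a read (0.380%), and all 3 DQ genes of the set were among them, which is what the choice of the set used. With at least 2 animals on each side, 14 genes remained (0.106%): the 3 DQ genes, LA-DQB, the Y-linked DDX3Y, USP9Y and ZFY, and C17H4orf46, CYSLTR1, FDX1, FTL, LOC512440, MGC148762 and PRSS2. No gene had the same call in every tissue of every animal while differing between animals (0.00%). Without the liver library labelled bull 3, BOLA-DQA1 and the Y-linked USP9Y and ZFY did (0.0228%). The 0 reads of both Y-linked genes there were part of why that library was doubted. Without both doubted libraries 5 genes did (0.0380%), BOLA-DQA1 the only one of the set. Genes on throughout 1 animal and off throughout another were 89 (0.677%) without the liver library and 108 (0.821%) without both, the 3 DQ genes included. BOLA-DRB3, BOLA-DMA, BOLA-DMB and CD74 were on in all 40 libraries, as were 64.6% of all genes with a read.

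Near the threshold, 9 values of the set were at 2 reads and 8 were at 3. Only 6 of these 17 values belonged to DQ genes: BOLA-DQA1 in the muscle of cow 4 (3 reads), BOLA-DQA2 in the fat of cow 1 (3) and the muscle of cow 5 (2), and BOLA-DQB in liver, muscle and pituitary gland of bull 1 (3, 2 and 3). The other values were those of BOLA-DOA and BOLA-DOB, whose calls are described with their levels.

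The DQ genes are neighbours. In RefSeq's gene table for ARS-UCD2.0, 9 of the 10 symbols were matched and BOLA-DQA1 was not. Among the protein-coding genes of chromosome 23, BOLA-DQA2, BOLA-DQB, BOLA-DQA5 and BOLA-DQB1 follow each other directly, with BOLA-DRB3 and BOLA-DRA close by. BOLA-DOB, BOLA-DMB, BOLA-DMA and BOLA-DOA lie in another stretch of the same chromosome, next to the DY genes and DSB. CD74 is on chromosome 7. The count tables were made on the bosTau7 assembly, so positions are not given.

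The count tables hold 3 further DQ symbols, which helps to see what the animals with an off call carried. BOLA-DQA5, the third DQA symbol, was on in 33 libraries. BLA-DQB, which RefSeq lists as BOLA-DQB1, was on in all 40, and LA-DQB, added to the comparison after its values were seen, in 28. The authors counted uniquely aligned reads only, and DQ genes and their copies resemble each other, so a read of an allele unlike the reference may have been placed on another symbol or lost, and values of single DQ symbols are uncertain. The shares below are shares of reads, not divided by gene length, and the part of such placement in them was not tested.

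Among the reads on BOLA-DQA1, BOLA-DQA2 and BOLA-DQA5, the symbol with most reads was the same in all 4 tissues of 8 animals. In cow 1, cow 2 and bull 2 it was BOLA-DQA5, with at least 99.3% of the DQA reads in every tissue. In cow 3 and cow 4 it was BOLA-DQA1, at 68.7% to 77.5% and 85.1% to 100%. In bull 1 it was also BOLA-DQA1, at 46.2% to 76.6%, where the lowest value rested on 13 reads of muscle (95% Clopper-Pearson interval 19.2% to 74.9%, which covers counting error only, as do all intervals and floors here). In bull 4 it was BOLA-DQA2 at 96.3% to 100%, and in cow 5 also BOLA-DQA2, at 92.3% to 100% but with only 27 DQA reads over its 4 tissues. In the remaining bulls the leading symbol changed. Bull 3 had most on BOLA-DQA5 in fat, muscle and pituitary gland, but 84.4% of 32 reads on BOLA-DQA1 in the liver library under its label (interval 67.2% to 94.7%). In bull 5 BOLA-DQA1 led in liver, fat and muscle, and in the pituitary library under its label it had 21.8% of 147 reads (interval 15.4% to 29.3%), with 61.2% on BOLA-DQA5.

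On the side of the beta chains, BLA-DQB had more than 50% of the DQB reads in all 4 tissues of 8 animals, and BOLA-DQB led in none. In the animals with high BOLA-DQB, it took 16.6% to 35.7% of the DQB reads in cow 1, 13.1% to 26.4% in cow 2 and 8.11% to 20.4% in bull 2. LA-DQB had at most 0.683% in these 3 animals. In contrast, LA-DQB took 13.0% to 20.9% in cow 3, 11.7% to 23.1% in cow 4 and 39.8% to 52.7% in bull 1. Reads of BOLA-DQB were 0 to 8 per library in these animals. LA-DQB took only 6.45% to 8.02% in cow 5 and 0.439% to 0.933% in bull 4, where BOLA-DQB was off too. Bull 3 had both in fat, with 21.5% on BOLA-DQB and 4.15% on LA-DQB. In bull 5 LA-DQB took 16.5% in liver and 17.7% in muscle, but 48.8% of 1170 reads in fat (interval 45.9% to 51.7%), with 51.1% on BLA-DQB. In the pituitary library labelled bull 5, LA-DQB took 67.0% of 182 reads (interval 59.7% to 73.8%) and BLA-DQB 24.7%.

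Read together, the DQ symbols fell into loose combinations, which other symbols crossed in some animals. Cow 1, cow 2 and bull 2 had BOLA-DQB on in every tissue, 53 or more reads of BOLA-DQA5 per library, and 0 reads of BOLA-DQA1. Bull 3 had BOLA-DQB and BOLA-DQA5 on in its fat, muscle and pituitary libraries. In its fat and pituitary libraries LA-DQB (50 and 15 reads) and BOLA-DQA2 (6 and 5) were on as well. Cow 3, cow 4, bull 1 and bull 5 had BOLA-DQA1 and LA-DQB on in every library. Their BOLA-DQB was at 0 to 8 reads apart from the doubted pituitary library. Bull 1 alone of these had BOLA-DQA2 on in every library, at 4 to 9 reads. Bull 4 had BOLA-DQA2 on, no read of BOLA-DQA1 or BOLA-DQB, and 227 to 1486 reads of BLA-DQB. LA-DQB and BOLA-DQA5 were on in 3 of its libraries each, at 14 reads or fewer. Cow 5 had the fewest reads of DQA, 27 over its 4 libraries, beside 232 to 618 reads of BLA-DQB per library. It had LA-DQB on in every library too, at 16 to 54 reads, but 0 reads of BOLA-DQA1. With 10 animals, these combinations are a description only.

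**Figure D2:**
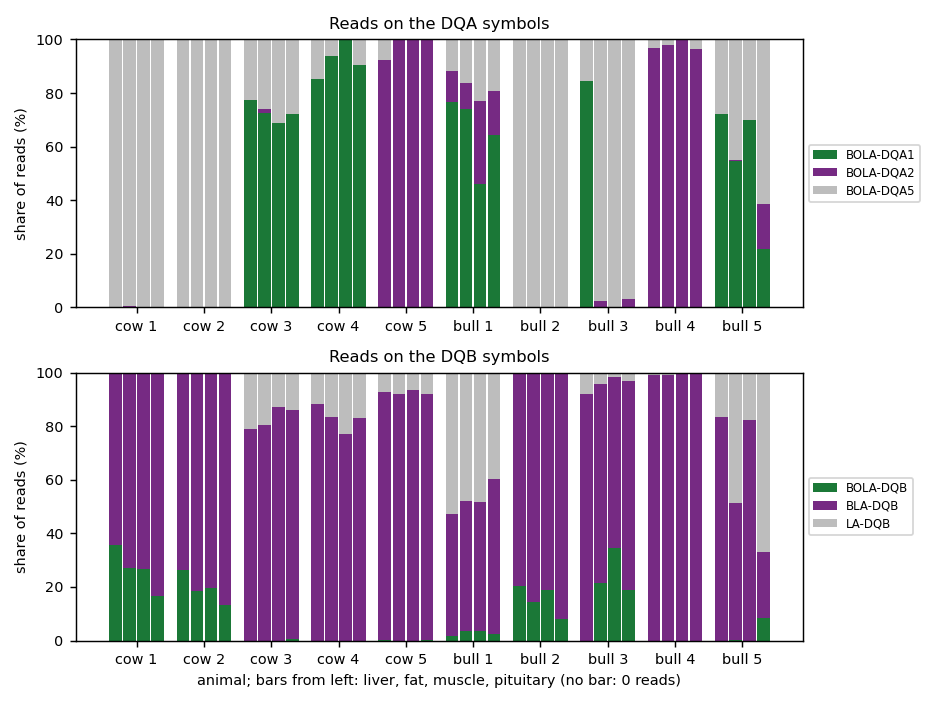
Share of reads (%) on the 3 DQA symbols (top) and the 3 DQB symbols (bottom) in each library; the 4 bars of an animal are liver, fat, muscle and pituitary gland from left to right. The bars of an animal differ most in bull 3, whose liver bar has 84.4% BOLA-DQA1 and no BOLA-DQB, and in bull 5, whose fat bar has 48.8% LA-DQB and whose pituitary bar has 61.2% BOLA-DQA5 and 67.0% LA-DQB.

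Reads of the DQ genes were also set against those of CD74, the general class II companion, in the same library. For bull 4, BOLA-DQA2 had 12.1 reads per 1000 CD74 reads in liver, 8.11 in fat, 9.67 in the muscle and 8.59 in the pituitary gland. For bull 3, BOLA-DQB had 18.4 in fat, 17.1 in muscle and 17.4 in the pituitary gland. For cow 2 it fell from 88.3 in liver through 55.3 in fat and 42.2 in muscle to 36.3 in pituitary gland. Liver was the highest tissue of BOLA-DQA1 on this scale in all 4 animals that had it on throughout, at 8.94 to 13.7 reads per 1000 CD74 reads, against 3.16 to 4.49 in their fat. Within these animals the values spanned 3.43 to 8.94 in cow 3, 1.74 to 11.4 in cow 4, 2.695 to 13.4 in bull 1 and 3.50 to 13.7 in bull 5. BOLA-DRB3, in the same measure, ran from 21.0 in the muscle of bull 3, which had 27 BOLA-DRB3 reads, to 159 in the pituitary gland of cow 2. Cow 2 and bull 2 had the 2 highest values of BOLA-DRB3 in liver, muscle and pituitary gland.

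**Figure D3:**
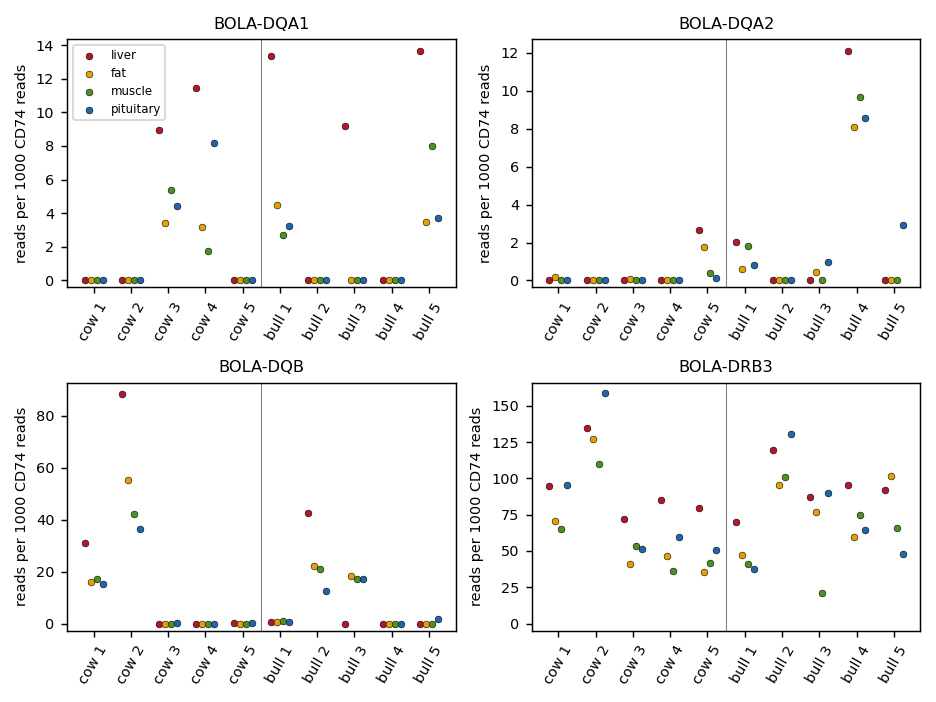
Reads of BOLA-DQA1, BOLA-DQA2, BOLA-DQB and BOLA-DRB3 per 1000 reads of CD74 in the same library (linear axes), by animal, with tissues as colours and a grey line between cows and bulls. BOLA-DRB3 lies above 0 in every library, from 21.0 to 159, whereas the DQ genes are at or near 0 in whole animals and reach 88.3 for BOLA-DQB in the liver of cow 2.

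CD74 was on everywhere and highest on average in fat. Its level in liver ran from 473 to 1212 CPM with a median of 659. In fat it ran from 493 to 3000 with a median of 886, in muscle from 255 to 1090 with a median of 558, and in pituitary gland from 239 to 561 with a median of 501. The tissue means were 1143 ± 731 (SD, n = 10) in fat, 745 ± 242 in liver, 566 ± 248 in muscle and 461 ± 102 in the pituitary gland. Fat was above liver in 8 of 10 animals, liver above muscle in 8 and muscle above pituitary gland in 6, while the ranges of all neighbours in this order overlapped. The highest value was the fat of bull 5 at 3000 CPM. In that library the summed level of 8 macrophage and monocyte genes was the lowest of the 10 fat libraries (483 CPM against a median of 793). That of 5 dendritic cell genes was also the lowest (11.4 CPM against a median of 24.4), and that of 3 leukocyte genes ranked 8 of 10. The 3 fat marker genes measured had the highest sum. The sums of 3 B cell genes (2.78 CPM) and 6 T cell genes (19.8 CPM) were the second highest. The part of these genes in the CD74 value was not tested.

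BOLA-DRB3, the beta chain of DR and a highly polymorphic gene of cattle, followed the same order of means. It averaged 86.9 ± 82.1 CPM in fat, 69.1 ± 25.4 in liver, 35.8 ± 21.4 in muscle and 33.2 ± 10.6 in the pituitary gland (SD, n = 10). Liver was above muscle and above pituitary gland in all 10 animals, but fat and liver were split 5 to 5. The lead of fat over liver rested on bull 5, whose fat had 305 CPM. Without this animal the log2 ratio of the fat and liver means was -0.14 instead of 0.33.

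The DM genes were also on throughout. BOLA-DMA averaged 15.3 ± 6.07 CPM in fat, 12.8 ± 6.83 in liver, 10.6 ± 4.66 in muscle and 6.502 ± 1.51 in the pituitary gland. Its lowest library was a pituitary gland at 3.43 CPM and its highest a liver at 26.3. Fat exceeded pituitary gland in 10 of 10 animals. BOLA-DMB averaged 21.7 ± 8.02 in fat, 20.4 ± 7.13 in liver, 9.68 ± 4.39 in muscle and 7.19 ± 1.97 in the pituitary gland. In all 10 animals it was higher in liver and in fat than in muscle and pituitary gland, whereas liver and fat did not separate, with 5 animals each way.

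The DO genes had low counts and opposite tissues at the top. BOLA-DOA was highest in liver at 3.08 ± 1.74 CPM, above muscle and pituitary gland in 10 of 10 animals and above fat in 9, with means of 1.003 ± 0.468 in pituitary gland, 0.965 ± 1.25 in muscle and 0.738 ± 0.379 in fat. It was on in 36 libraries. The 4 libraries with an off call were the muscle of cow 4 (1 read), cow 5 (2), bull 2 (1) and bull 3 (0). BOLA-DOB was highest in fat at 4.29 ± 2.54 CPM and lowest in liver at 0.611 ± 0.266, and the fat value was the higher one in 10 of 10 animals. Muscle averaged 1.57 ± 1.75 and pituitary gland 0.977 ± 0.268. BOLA-DOB was on in 34 libraries, and its 6 off calls, all at 2 reads, were in liver or muscle of cow 4, bull 1, bull 2 and bull 3. Unlike the DQ genes, BOLA-DOA and BOLA-DOB were on in some tissue of every animal, and no animal was off in all 4 tissues.

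**Figure D4:**
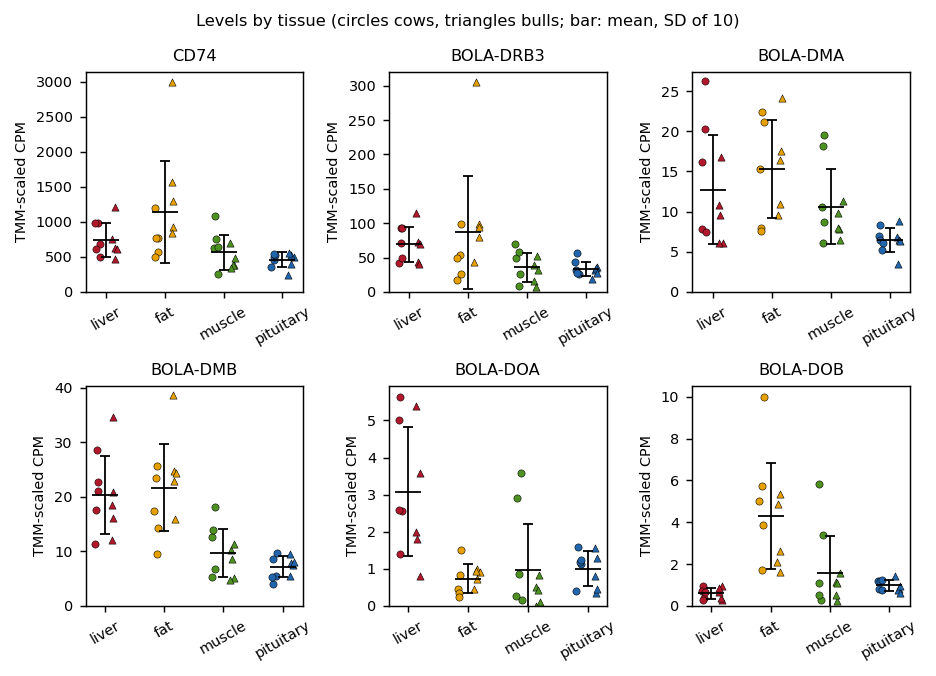
TMM-scaled CPM (linear axes from 0) of the 6 genes that were on in at least 34 libraries, by tissue; circles are cows, triangles bulls, the bar is the mean and its whiskers the SD of 10 animals. CD74, BOLA-DRB3, BOLA-DMA and BOLA-DMB have their highest means in fat, BOLA-DOA in liver (3.08 CPM) and BOLA-DOB in fat (4.29 CPM), and the fat of bull 5 stands out at 3000 CPM of CD74 and 305 of BOLA-DRB3.

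Leaving out the doubted liver and pituitary libraries moved these means little. With n = 9, CD74 averaged 775 ± 236 CPM in liver and 450.1 ± 101 in pituitary gland, BOLA-DRB3 72.2 ± 24.9 and 33.9 ± 11.0, and BOLA-DOA 3.33 ± 1.64 and 0.940 ± 0.450. The order of tissues depended on the scaling. Unscaled CPM shifted every gene by -0.37 on the log2 scale on average in liver, by 0.35 in fat, by -0.46 in muscle and by 0.48 in the pituitary gland. On that scale pituitary gland ranked above muscle for all 9 genes of the set, and CD74 was also higher in pituitary gland (644 CPM) than in liver (589). Fat stayed the highest tissue for CD74, BOLA-DRB3, BOLA-DMA, BOLA-DMB and BOLA-DOB, and liver for BOLA-DOA. With the factors of relative log expression (RLE), the BOLA-DMB means of liver (21.3 CPM) and fat (21.3 CPM) changed places. Summed levels of the 8 macrophage and monocyte genes ran from 809 to 1927 CPM in liver, 483 to 1425 in fat, 66.4 to 394 in muscle and 80.7 to 269 in pituitary gland, and all 8 were on in at least 1 library of each tissue. The 3 B cell genes summed to 0.905 to 3.19 CPM in fat and 1.13 to 6.42 in liver. Their part in the class II levels was not tested.

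Once the tissue means were removed, the gene most like CD74 over the 40 libraries was CRTAP (Pearson's r = 0.80 on log2(CPM + 1)), followed by PPT1 (0.76), SH3BGRL3 (0.74), BOLA-DRB3 (0.74) and GFRA1 (0.73). Of the set, BOLA-DMA came next at 0.73, the sixth of 12568 genes, and BOLA-DOA had 0.68, BOLA-DMB 0.56 and BOLA-DOB 0.45. The DQ genes were far lower, with 0.30 for BOLA-DQA2, 0.25 for BOLA-DQA1 and -0.11 for BOLA-DQB. They were at 0 reads in 22, 23 and 16 of the 40 libraries, so these values rest partly on the floor. The libraries share animals and differ in depth, so these values are descriptions.

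By calls, the gene most like BOLA-DQA1 was SLC37A4, with the same call in 31 of 40 libraries, before LA-DQB with 29. LOC512440 had the call of BOLA-DQB in 33 libraries. LYSB, on in only 9 libraries, had that of BOLA-DQA2 in 31, and BOLA-DQA2 was itself off in 26. These genes were the best matches among all genes on in a library, and no background agreement was worked out. BOLA-DOA and FAM228B had the same call in all 40 libraries, and TBX19 shared that of BOLA-DOB in 38, where most calls on both sides were on.

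Of the other class II symbols, 5 of 7 listed were in the files. BOLA-DYA, of a class II pair known from ruminants, was on in 3 libraries, all of them pituitary glands of cows: cow 1 had 6 reads, cow 2 had 5 and cow 3 had 3. BOLA-DYB and DSB were off in all 40 libraries, with at most 1 read. Of 15 genes listed for regulation and processing of class II, 11 were present and all of these were on in at least 1 library of each tissue. CIITA, the master switch of class II transcription, was not among them. RFX5 and RFXANK, subunits of the factor that binds class II promoters, averaged 22.8 ± 4.76 and 30.7 ± 6.48 CPM in pituitary gland, 15.02 ± 3.12 and 20.4 ± 6.36 in muscle, 12.1 ± 3.74 and 11.8 ± 3.95 in liver, and 9.45 ± 5.63 and 34.8 ± 22.2 in fat. CTSS, the protease that trims CD74, averaged 121 ± 59.2 CPM in fat, 117 ± 44.7 in liver, 38.2 ± 23.0 in muscle and 29.2 ± 5.97 in the pituitary gland.

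Sex was the question of the study, and the choice of the set did not use it. Both models of the study were fitted to all genes with edgeR's likelihood ratio test: M1 compared 5 bulls with 5 cows in each tissue, and M2 compared the sexes over the 40 libraries with tissue as a further term. M2 treats the 4 libraries of an animal as separate samples, and with the animal as a block in limma voom its calls over all genes were 8 instead of 222. That fit changes the test as well as adding the block, so the share of each in the drop cannot be told. By the quasi-likelihood test, without a block, M2 called 77. No gene of the set passed an adjusted p of 0.05 in liver, where 0.175% of all genes passed, in fat (0.114%) or in muscle (0.517%). At an unadjusted p below 0.05 there were 0, 3 and 2 such genes, and edgeR's quasi-likelihood test and DESeq2 called none either. Without the liver library labelled bull 3, 0 genes of the set passed in liver as well. In pituitary gland 1 of 9 passed (0.745% of all genes), and in M2 1 of 9 (1.69%), BOLA-DQA2 both times.

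In pituitary gland, BOLA-DQA2 had 0, 0, 0, 0 and 1 reads in the cows and 5, 0, 5, 104 and 25 in the bulls. Bull 2 lay with the cows, so the sexes overlapped. Per read sequenced, the ratio of bulls to cows was 110.5 over the summed reads, with a 95% exact interval of 19.5 to 4395 that covers counting error only. The fitted log2 difference was 6.04 (SE 1.75) with an adjusted p of 0.00425 by the edgeR likelihood ratio test, and its size depends on the prior count, since the cows had 1 read. By the quasi-likelihood test the adjusted p was 0.157 and by DESeq2 0.0501. It was 0.00978 without the doubted pituitary library and 0.0299 without bull 4.

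Over the 4 tissues, M2 gave BOLA-DQA2 a log2 difference of 4.23 (SE 1.03) and an adjusted p of 0.0242 (edgeR). Without bull 4 the difference was 1.53 and the adjusted p 0.559. The call was also lost without cow 1, cow 2, cow 3 or bull 1, at adjusted p of 0.105, 0.0853, 0.0661 and 0.0616, and filterByExpr removed the gene. Without both doubted libraries the difference was 4.31 with an adjusted p of 0.0152. With the animal as a block in limma voom it was 2.23 with an adjusted p of 0.322. The highest cow was cow 5, with 12 reads in liver and 11 in fat, more than every bull but bull 4 in those tissues.

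The other 8 genes of the set did not pass in any model. In fat, CD74 averaged 1526 ± 874 CPM in bulls and 760 ± 273 in cows (log2 0.99, adjusted p = 0.616 by edgeR), and BOLA-DRB3 124 ± 103 against 49.2 ± 31.4 (log2 1.33, adjusted p = 0.614). Without bull 5 the log2 differences were 0.60 and 0.69. BOLA-DOA in muscle averaged 0.374 ± 0.332 CPM in bulls and 1.56 ± 1.59 in cows (log2 -2.02, adjusted p = 0.348). In the muscle libraries, the summed macrophage and monocyte genes were 66.4 to 260 CPM in bulls and 244 to 394 in cows, and CD14, a monocyte receptor, was lower in bulls (log2 -1.40, SE 0.34, adjusted p = 0.0233 by edgeR, but 0.244 by the quasi-likelihood test). Its call was also lost without cow 1, cow 2, cow 3, bull 2, bull 3 or bull 5, at adjusted p of 0.0594 to 0.122 by edgeR. The part of these genes in the BOLA-DOA value was not tested. The test of the interaction of sex and tissue called none of the 9 genes (0.335% of all genes), with 2 below an unadjusted p of 0.05, CD74 and BOLA-DRB3, and the quasi-likelihood test called none.

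Around the set, none of the 11 genes of class II regulation and processing passed for sex in any tissue or in M2 by edgeR's likelihood ratio test, with 1, 0, 1 and 1 below an unadjusted p of 0.05 in liver, fat, muscle and pituitary gland and 0 in M2. BOLA-DYA in pituitary gland had 15 reads over the cows and 0 over the bulls. With the bulls set at a floor of 3 reads and the 15 taken as exact, that is 6.29-fold lower in bulls. By edgeR's likelihood ratio test BOLA-DYA was lower in bulls (adjusted p = 0.0139). The quasi-likelihood test (adjusted p = 0.297) and DESeq2 (0.302) did not call it, and edgeR's call was lost without cow 1, cow 2 or bull 4 (0.0817, 0.0577 and 0.0636). Of 12 genes of class I presentation, 1 passed in M2. This was BOLA-NC1, a non-classical class I gene, which was lower in bulls by a log2 of -0.88 (SE 0.21, adjusted p = 0.00861, edgeR). The adjusted p was 0.0164 without the liver library labelled bull 3 and 0.00720 without both doubted libraries. With the animal as a block in limma voom the difference was -0.78 with an adjusted p of 0.297. The call of edgeR was lost without cow 1, bull 3 or bull 4 (adjusted p of 0.131, 0.0750 and 0.0593). BOLA-A, also of class I, was on in 5 libraries and off in all tissues of 5 animals. Among the markers, edgeR's likelihood ratio test called CD2 in pituitary gland (adjusted p = 0.0196) and CD3E in M2 (0.0197) lower in bulls. It called MYH7 higher in bulls in pituitary gland (adjusted p = 0.00837), and TNNT3 for the interaction (0.0427). Other tests of these markers are not given here.

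**Figure D5:**
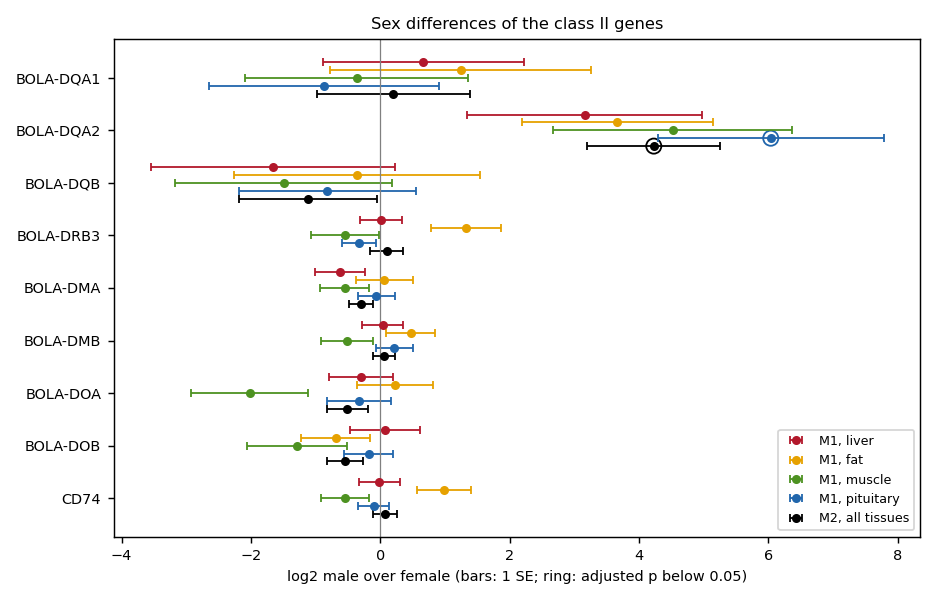
Log2 difference of bulls to cows for the 9 class II genes (x axis), from M1 in each tissue (colours) and from M2 over all tissues (black); bars are 1 SE and rings mark an adjusted p below 0.05. Rings appear only on BOLA-DQA2, at 6.04 in pituitary gland and 4.23 in M2, and the DQ genes have the widest bars.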

How the data were processed

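RNA-seq counts from 40 libraries of 10 cattle were analysed. The authors used Trimmomatic on the paired-end reads, mapped these to bosTau7 with Bowtie2 in Tophat2, and counted uniquely mapped reads per gene with HTSeq. They deposited raw counts by gene symbol. The counting mode and strandedness are not given in the sources used here, so overlapping and antisense genes are uncertain. The row without a gene name, 0.114% to 2.76% of the named reads, was left out.

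Sex, tissue and animal came from the labels, in which an ear tag ties the 4 libraries of an animal together. The set and all gene lists were chosen with earlier results of these data known. Genes were named when they belong to the set or are listed and passed a sex test. Those most alike in calls or level were named as well. Some listed genes are named for context after their values were seen. Listed genes whose calls differed between animals are not all named.

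The sexes were compared in edgeR 4.0.16 (R 4.3.3) with M1 and M2, TMM factors, a prior count of 0.125, the likelihood ratio test and Benjamini-Hochberg adjustment over 13148 genes at 0.05. Each tissue has 5 animals per sex, and p-values of M1 measure the spread between these animals. Those of M2 measure the spread between libraries, since M2 takes the 4 libraries of an animal as separate samples. Alternatives were the quasi-likelihood test, RLE factors, filterByExpr, DESeq2 1.42.0, limma 3.58.1 voom with the animal as a replicate block (correlation 0.104 between libraries of an animal), other thresholds of on, and leaving out each animal. Leaving out the pituitary library labelled bull 5 was added after seeing the data, as was the count of genes on in 1 animal and off in another. Intervals and floors cover counting error only. Figures were drawn with matplotlib 3.10.9.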

Additional observations from a re-analysis of the deposited data

Results flagged for a closer look

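Within a sex and tissue, 12 of 72 groups of 5 libraries held a value far from the other 4. Chance gives about 1 in 20 for values from a single normal distribution, a rate that does not hold for DQ genes, which were chosen on these values and where the other 4 libraries may be at 0. The values are therefore a description. BOLA-DQA1 stood apart in muscle for cow 3 (5.84 CPM) and for bull 5 (3.87 CPM). BOLA-DQA2 stood apart for cow 5 in liver (1.64 CPM), fat (0.866), muscle (0.263) and pituitary gland (0.0684), the last 2 resting on 2 and 1 reads. It stood apart for bull 4 in liver (14.7 CPM), fat (12.7) and muscle (6.79). BOLA-DQB stood apart for bull 2 in liver (25.95 CPM) and for cow 2 in fat (42.8 CPM). The remaining value was that of BOLA-DRB3 in the fat of bull 5, at 305 CPM with the next bull at 98.95 CPM.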

How the results depend on the processing

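In pituitary gland 0 of the 9 genes passed by the quasi-likelihood test, after filterByExpr (which removed BOLA-DQA2) and by DESeq2, against 1. In M2 0 passed after filterByExpr and with the animal as a replicate block, and leaving out single animals gave 0 to 1. The adjusted p of BOLA-DQA2 in M2 was 0.105 without cow 1, 0.0853 without cow 2, 0.0661 without cow 3, 0.0616 without bull 1 and 0.559 without bull 4. The replicate block, which ties the libraries of an animal together by ear tag, changed no other call of the set. The 12 calls that went against the majority of their animal were 6 when 1 read counted as on, with animals split 2 against 2 left out of both counts. From 10 reads, mixed animals rose to 3 for BOLA-DQA1, 8 for BOLA-DOA and 10 for BOLA-DOB. They fell to 2 for BOLA-DQA2 and to 2 for BOLA-DQB. Of the set, the genes on in some animals and off in others with the same call in all tissues of every animal were 1 instead of 0 without the liver library labelled bull 3, also without both doubted libraries, and 0 to 1 when single animals were left out. The log2 ratio of fat to liver means ran from -0.14 to 0.45 for BOLA-DRB3, negative without bull 5, and from -0.074 to 0.198 for BOLA-DMB, negative without cow 4 or bull 5; for these genes the order of fat and liver is not settled. The highest tissue was kept in 87 of 90 repeats that left out an animal, and 67 of 72 means moved by under 1 SD with other scalings. At this depth, low calls of BOLA-DQA2, BOLA-DOA and BOLA-DOB lie within a few reads of the threshold.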
